A study of Mus musculus with 9 samples.

Results

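The genes described here are 10 members of STAT3 and STAT5 signalling, chosen by name from what is known of the pathway: the transcription factors Stat3, Stat5a and Stat5b, the feedback inhibitors Socs1, Socs2, Socs3 and Cish, and the receptor chains Il6st, Lifr and Osmr. They were chosen with earlier results of these data known. All 10 were found among the 53801 genes of the count table, and all 10 were among the 22452 genes that passed the filter on low counts. The RNA came from cultured mouse spermatogonial stem cells (SSCs), the germ cells that renew themselves and feed spermatogenesis, with the genotype Prmt5 flox/flox; Rosa26-CreERT2. All 9 libraries, in 3 groups of 3, came from cells given 4-hydroxytamoxifen (4OHT) at 1 µM, which activates CreERT2 and deletes Prmt5, the gene of an arginine methyltransferase. The 4OHT group had nothing else. The MU group was read as cells that also carried overexpressed catalytically dead PRMT5 (E444Q), and the OE group as cells with overexpressed PRMT5 (WT). The labels give only MU and OE, and what is said of the constructs holds only if they were read correctly. No group without 4OHT was analysed here, so every comparison is made within cells that had received it. CreERT2 expressed from Rosa26 is present in all cell types of such a mouse, and the labels describe the cells as a single SSC line. The study's methods also describe SSCs plated on feeder cells, in its screen embryonic fibroblasts of another mouse strain. RNA of such feeder cells would not come from cells of this genotype, and the sources used here do not state whether these libraries held any.

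Cytokines of the interleukin-6 family, among them LIF and oncostatin M, bind receptor pairs that contain gp130, the product of Il6st, and Janus kinases attached to these receptors then phosphorylate STAT3. STAT5A and STAT5B are activated downstream of receptors such as those for growth hormone, prolactin and interleukin-3, and phosphorylated STATs enter the nucleus as dimers and bind DNA. The SOCS proteins and CISH are made in response and bind receptors or kinases to shut the signal down. LIF is a usual component of SSC culture medium, and in spermatogonia STAT3 is known for its part in differentiation. The values below are RNA levels and say nothing of phosphorylation.

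STAT dimers recognise the letters TTCNNNGAA, which read the same on both strands, and these letters were searched in the 250 bases before and 50 bases after each start site in RefSeq (GRCm38.p6). A window was found for 9 of the 10 genes (the exception was Socs2), and 2 of the 9, Socs3 and Cish, held the motif, against 8.30% of all 32851 windows and 9.55% of the 27025 genes with a window. The stretches around these matches are printed because both genes are feedback inhibitors that STATs are known to induce. Capitals mark the motif, and each sequence runs 5′ to 3′ on the strand of the gene.
Socs3, chr11:117969501-117969530 (- strand): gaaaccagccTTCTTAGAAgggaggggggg
Cish, chr9:107296659-107296688 (+ strand): TTCCTGGAAagTTCTTGGAAatctgtcaaa
In Socs3 the motif began 154 bases before the start site, and in Cish the first of 2 copies began at the start site itself and the second 11 bases later. Among the other JAK-STAT genes described further down, 5 of the 54 with a window held it (Il31ra, Prlr, Csf2rb2, Il7r and Bcl6). A match is a run of letters, and no binding was measured here.

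Prmt5 (ENSMUSG00000023110) lay between 28.2 and 31.9 CPM (counts scaled to the library total and between libraries by TMM) in the 4OHT libraries, between 145 and 147 CPM in MU and between 1071 and 1085 CPM in OE. The counts do not separate the transgene from the endogenous gene, and its RNA was 7.36-fold higher in OE than in MU. MU against OE therefore joins the difference between the constructs with this difference in RNA level. Each construct group also differs from 4OHT in having received a construct at all. These parts cannot be told apart here. Library totals ran from 78751996 to 95370711 counts in 4OHT, from 192033300 to 365719548 in MU and from 79941857 to 154557863 in OE. Depth thus went with the group, and every MU library was deeper than every other library. The lowest count behind any value of the 10 genes was 486, for Socs2. In each library the count 4 occurred 1.35 to 1.84 times as often as the counts next to it, so a read pair may stand for about 4 counts. The 4OHT libraries varied more among themselves than the others: the median coefficient of variation over the 2742 genes at or above 100 CPM was 6.56% in 4OHT, 2.02% in MU and 2.51% in OE. The fit took a common spread for each gene over all groups. Intervals and p-values against 4OHT may therefore be too narrow, and those between MU and OE too wide. The labels do not say whether replicates were separate cultures, and p-values measure only the spread between these libraries.

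RNA of several cell types was present, and its amounts moved with the groups. The summed level of 8 germ cell markers was 1829 to 1906 CPM in 4OHT, 2788 to 2880 CPM in MU and 3024 to 3050 CPM in OE, with 6 of the 8 higher and 2 (Gfra1 and Zbtb16) lower in both construct groups. The sum of 12 fibroblast markers, such as collagen genes, which feeder cells express, was 9884 to 11983 CPM, 5437 to 5529 CPM and 4279 to 4357 CPM in the same order. All 12 were lower in OE than in 4OHT, 11 were lower in MU with Dcn higher, and 11 were higher in MU than in OE. The 12 macrophage and leukocyte markers summed to 174 to 189 CPM, 1145 to 1178 CPM and 2233 to 2358 CPM, and 11 of the 12 were higher in each construct group than in 4OHT. Lyz2 alone was at 145 to 158 CPM, 925 to 954 CPM and 1834 to 1937 CPM, so that most of each sum was this gene. Sertoli markers stayed at or below 26.9 CPM in sum, endothelial markers at or below 20.8 CPM and Leydig markers at or below 7.12 CPM, with 2 of the 6 Leydig markers at 0 in all 9 libraries. In such bulk samples, fewer cells of a type and less RNA per cell cannot be told apart, and the part of the cell mixture in the results below was not tested. Ratios to summed markers are given beside some results as descriptions, chosen after the values had been seen.

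Against 4OHT, OE libraries had less Osmr, Stat3 and Stat5a RNA and more Cish and Lifr RNA, and the same 5 genes passed the test in the same directions in MU. Thus 5 of the 10 genes passed in OE against 4OHT (2 higher, 3 lower), where 57.8% of all genes tested did so (29.9% higher and 27.9% lower), and 5 of 10 passed in MU against 4OHT (2 higher, 3 lower), where 56.0% of all genes did so (29.5% higher and 26.5% lower). The 10 genes were therefore called about as often as other genes. Both comparisons use the same 3 libraries of 4OHT, so their results are not independent of each other. Between the constructs, 1 of the 10 genes passed, Osmr, which was higher in MU, where 3.17% of all genes passed (2.12% higher and 1.06% lower). That last background is loose, since the 712 genes behind it became 400 without MU replicate 2 and 1099 without 4OHT replicate 3. Values of the 2 groups did not overlap for 5 of the 10 genes in OE against 4OHT (61.6% of all genes), for 6 in MU against 4OHT (63.9%) and for 5 in MU against OE (25.9%). All p-values given for single genes are from edgeR's quasi-likelihood test with Benjamini-Hochberg adjustment over all genes tested.

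**Figure D1:**
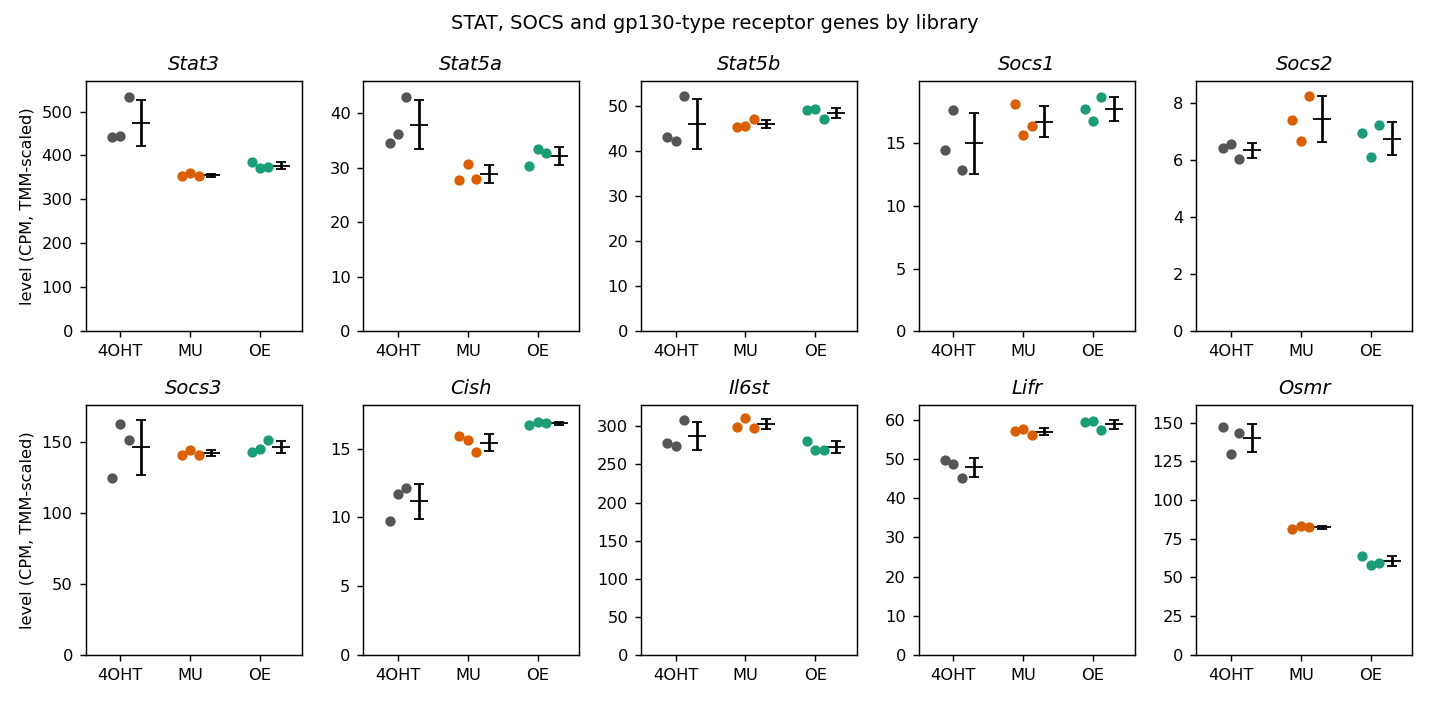
Level (CPM, linear axes from 0) of the 10 genes in each library, with points for the 3 libraries of a group and a bar for their mean and SD. Osmr stands at 130 to 147 CPM in 4OHT, 81.1 to 83.4 CPM in MU and 58.2 to 64.0 CPM in OE, while Socs3 overlaps in all 3 groups.

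The transcription factors came first. Stat3 (ENSMUSG00000004040, chromosome 11, 100885098 to 100939540, GRCm38, minus strand), the mediator of gp130 signals, was at 442, 445 and 533 CPM in the 3 libraries of 4OHT, at 353, 359 and 353 CPM in MU and at 386, 371 and 375 CPM in OE. Every 4OHT library was above all 6 construct libraries, and the third 4OHT library stood well above the other two. Stat3 fell to 79.7% of its 4OHT level in OE (log2 fold change -0.33, 95% interval -0.47 to -0.19, adjusted p = 5.33e-04) and to 75.0% in MU (-0.41, interval -0.55 to -0.28, adjusted p = 7.29e-05). All MU libraries were also below all OE libraries, but that difference of -0.09 (interval -0.22 to 0.05) did not pass (adjusted p = 0.667). Per 1000 fibroblast marker counts Stat3 stood at 41.9 to 44.7 in 4OHT, 64.5 to 65.0 in MU and 86.0 to 90.3 in OE. Per 1000 germ cell marker counts it stood at 233.4 to 291.5 in 4OHT, 122.7 to 128.9 in MU and 121.5 to 126.7 in OE. Measured against these marker sets, Stat3 was thus higher in the construct groups by the first and lower by the second.

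Stat5a (ENSMUSG00000004043, chromosome 11, 100859351 to 100885169, plus strand), activated by hormone and cytokine receptors, lies beside Stat3, and the last exons of the pair share 72 bases on opposite strands. Stat3 was the more abundant, at 353 to 533 CPM, and the sources used here do not state whether counting used the strand. Some Stat3 reads could therefore have been counted for Stat5a, which was not tested. Stat5a values were 34.4, 36.2 and 42.9 CPM in 4OHT, 27.7, 30.7 and 27.9 CPM in MU and 30.3, 33.4 and 32.7 CPM in OE, so that both construct groups lay below 4OHT and overlapped each other. The fall in MU (-0.39, interval -0.57 to -0.22, adjusted p = 8.62e-04) was called with each library left out in turn. The fall in OE (-0.24, interval -0.41 to -0.06, adjusted p = 0.0244) was not called without 4OHT replicate 3 (-0.14, adjusted p = 0.0964), without OE replicate 1 (-0.18, adjusted p = 0.113), with upper-quartile scaling (-0.16, adjusted p = 0.106) or without the filter on low counts (-0.21, adjusted p = 0.0518).

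Stat5b (ENSMUSG00000020919, chromosome 11, 100780731 to 100850724, minus strand), the close paralogue of Stat5a with overlapping function, gave 43.1, 42.2 and 52.2 CPM in 4OHT, 45.2, 45.5 and 46.9 CPM in MU and 48.9, 49.2 and 47.1 CPM in OE. The range of 4OHT enclosed both other groups. No comparison passed (OE against 4OHT 0.08, interval -0.08 to 0.24, adjusted p = 0.39; MU against 4OHT, interval -0.16 to 0.16, adjusted p = 0.995). Without 4OHT replicate 3, the highest library, Stat5b was called higher in OE (0.17, adjusted p = 0.00840). Stat5a and Stat5b transcripts have 265 stretches of 100 bases in common, 3.44% of those of Stat5a and 4.79% of those of Stat5b, so a small share of their reads could have been counted for either. Within a library and per kilobase of exon, the ratio of Stat5a to Stat5b was 0.620 to 0.666 in 4OHT, 0.462 to 0.524 in MU and 0.482 to 0.540 in OE, a measure that no scaling between libraries enters.

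Of 10616 genes with a mean of at least 10 CPM, those with the highest Pearson correlation of log2 CPM with Stat3 across the 9 libraries were Ipo4 (0.996), Dst (0.995) and Wdfy3 (0.995). Like Stat3, Dst was highest in the third 4OHT library (596 CPM, against 492 and 501 CPM in the other two) and below all 4OHT values in each construct library (376 to 416 CPM). For Socs3 the closest were Creld1 (0.953), Mex3d (0.939) and Epop (0.924), all 3 lowest in the first 4OHT library, as Socs3 was. These correlations are descriptions over 3 groups of 3 libraries.

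Of the 4 feedback inhibitors, only Cish passed the test against 4OHT in the fit to all 9 libraries with TMM, in both construct groups, and the exceptions under other settings are given with each gene. Cish (ENSMUSG00000032578, chromosome 9, 107296026 to 107302784, plus strand), known as a STAT5 target that damps STAT5 signals, was at 9.74, 11.7 and 12.1 CPM in 4OHT, at 15.9, 15.6 and 14.7 CPM in MU and at 16.7, 17.0 and 16.8 CPM in OE. Every construct library was above every 4OHT library, and OE was above MU without overlap. Cish rose 1.5-fold in OE (log2 fold change 0.59, interval 0.40 to 0.78, adjusted p = 5.66e-05) and 1.38-fold in MU (0.46, interval 0.27 to 0.65, adjusted p = 4.65e-04), while MU and OE differed by -0.13 (interval -0.31 to 0.06, adjusted p = 0.631). Exons of Cish overlap 740 bases of the opposite-strand genes Gm17040 and Gm17041, which were at or below 0.118 CPM in each library, and the sources used here do not state whether counting used the strand. Relative to the germ cell markers, which rose as well, Cish was at 5.17 to 6.62 counts per 1000 marker counts in 4OHT, 5.11 to 5.64 in MU and 5.48 to 5.57 in OE, which overlap.

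Socs3 (ENSMUSG00000053113, chromosome 11, 117966079 to 117970047, minus strand), the inhibitor that binds gp130 and its kinases and is known as a STAT3 target, was at 125, 163 and 152 CPM in 4OHT, at 141, 145 and 141 CPM in MU and at 143, 145 and 152 CPM in OE. The 4OHT libraries spanned the whole range and the construct libraries fell inside it. The interval of the log2 fold change was -0.16 to 0.16 for OE against 4OHT (adjusted p = 0.999), and it was -0.21 to 0.12 for MU against 4OHT (-0.04, adjusted p = 0.658) as well as for MU against OE (-0.04, adjusted p = 0.894). Changes within those limits were not detectable with these libraries. The first 4OHT library was the lowest of all 9, and without it Socs3 was called lower in MU (-0.16, adjusted p = 0.0132) and was at -0.12 in OE (adjusted p = 0.0549). Because Stat3 fell and Socs3 did not change detectably, the ratio of Socs3 to Stat3 per kilobase within a library was 0.933, 1.21 and 0.939 in 4OHT, 1.32 to 1.33 in MU and 1.22 to 1.33 in OE.

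Socs1 (ENSMUSG00000038037, chromosome 16, 10782240 to 10785536, minus strand), a direct inhibitor of Janus kinases, was at 14.5, 17.6 and 12.9 CPM in 4OHT, at 18.1, 15.6 and 16.4 CPM in MU and at 17.8, 16.8 and 18.7 CPM in OE. The groups overlapped in all comparisons, and none passed (OE against 4OHT 0.25, interval 0.02 to 0.47, adjusted p = 0.0645; MU against 4OHT 0.16, adjusted p = 0.230). Its coefficient of variation in 4OHT, 16.1%, was the largest of the 10 genes in any group. Without 4OHT replicate 2, its highest 4OHT library, Socs1 was called higher in OE (0.38, adjusted p = 0.00595) and in MU (0.30, adjusted p = 0.0232), and with upper-quartile scaling it was called in OE (0.32, adjusted p = 0.0214).

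Socs2 (ENSMUSG00000020027, chromosome 10, 95385362 to 95417180, minus strand), known for restraining growth hormone signals, had the lowest level of the set: 6.41, 6.55 and 6.05 CPM in 4OHT, 7.40, 6.65 and 8.23 CPM in MU and 6.93, 6.10 and 7.20 CPM in OE. MU lay above 4OHT without overlap, yet the difference did not pass (0.23, interval -0.01 to 0.47, adjusted p = 0.102), except with upper-quartile scaling (0.31, adjusted p = 0.0327). OE overlapped 4OHT (0.09, interval -0.16 to 0.34, adjusted p = 0.520). Of its stretches of 100 bases, 2.31% also occur in Gm9847, which was at or below 0.198 CPM in each library.

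The receptor chains split 3 ways. Osmr (ENSMUSG00000022146, chromosome 15, 6813577 to 6874969, minus strand) encodes the chain that pairs with gp130 to bind oncostatin M and is well known in fibroblasts. It was at 147, 130 and 143 CPM in 4OHT, at 81.1, 83.4 and 82.5 CPM in MU and at 64.0, 58.2 and 59.3 CPM in OE, with no overlap between any of the groups. Osmr fell to 43.2% of the 4OHT level in OE (log2 fold change -1.21, interval -1.33 to -1.09, adjusted p = 5.12e-10) and to 58.8% in MU (-0.77, interval -0.89 to -0.64, adjusted p = 5.39e-08). It was 1.36-fold higher in MU than in OE (0.44, interval 0.32 to 0.57, adjusted p = 4.41e-04), and all 3 calls were made under each alternative tried. Its level moved with the fibroblast markers: Osmr stood at 14.9, 12.2 and 11.95 counts per 1000 counts of the 12 markers in the 4OHT libraries, at 14.9 to 15.1 in MU and at 13.6 to 14.96 in OE. Measured against these markers Osmr was thus no lower in the construct libraries than in 4OHT, and its MU and OE values lay within or just above the 4OHT range.

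**Figure D2:**
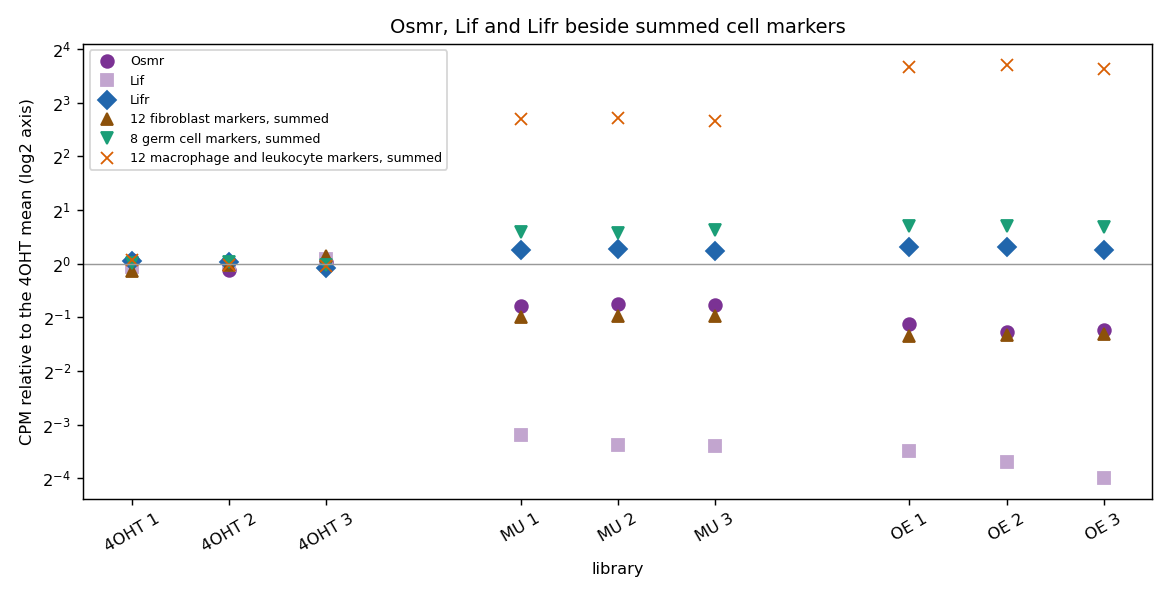
Level of Osmr, Lif and Lifr and summed level of fibroblast, germ cell and macrophage markers in each library, as CPM divided by the mean of the 3 libraries of 4OHT (log2 axis). Osmr lies beside the fibroblast sum in MU and OE, Lif lies far below it, and Lifr lies above 1 with the germ cell sum.

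Lifr (ENSMUSG00000054263, chromosome 15, 7090614 to 7197489, plus strand), the chain that pairs with gp130 to bind LIF, was at 49.8, 48.8 and 45.2 CPM in 4OHT, at 57.1, 57.8 and 56.1 CPM in MU and at 59.5, 59.7 and 57.5 CPM in OE. All construct libraries were above all 4OHT libraries, and MU and OE overlapped. Lifr rose 1.23-fold in OE (0.30, interval 0.18 to 0.41, adjusted p = 2.35e-04) and 1.19-fold in MU (0.25, interval 0.14 to 0.36, adjusted p = 9.66e-04), and the constructs differed by -0.05 (interval -0.16 to 0.07, adjusted p = 0.800). The germ cell markers rose by more: per 1000 of their counts Lifr stood at 24.7 to 26.4 in 4OHT, 19.5 to 20.7 in MU and 19.0 to 19.6 in OE. Per kilobase and within a library, Lifr was at 0.354 to 0.423 of Osmr in 4OHT, at 0.764 to 0.792 in MU and at 1.04 to 1.15 in OE, so that the order of the LIF and the oncostatin M chain was reversed between 4OHT and OE.

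Il6st (ENSMUSG00000021756, chromosome 13, 112464070 to 112510086, plus strand), which encodes the shared chain gp130, was at 279, 275 and 309 CPM in 4OHT, at 300, 310 and 298 CPM in MU and at 281, 268 and 269 CPM in OE. Each construct group overlapped 4OHT, but all MU libraries were above all OE libraries. Neither construct passed against 4OHT (OE -0.08, interval -0.19 to 0.04, adjusted p = 0.235; MU 0.07, interval -0.04 to 0.19, adjusted p = 0.243), although MU did with upper-quartile scaling (0.15, adjusted p = 0.0142) and without 4OHT replicate 3 (0.12, adjusted p = 0.0131). The 1.11-fold difference between MU and OE (0.15, interval 0.04 to 0.26, unadjusted p = 0.0122) had an adjusted p of 0.187. It was called when those groups were fitted alone (adjusted p = 0.00796) and when 4OHT replicate 3 was left out (adjusted p = 0.0165).

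**Figure D3:**
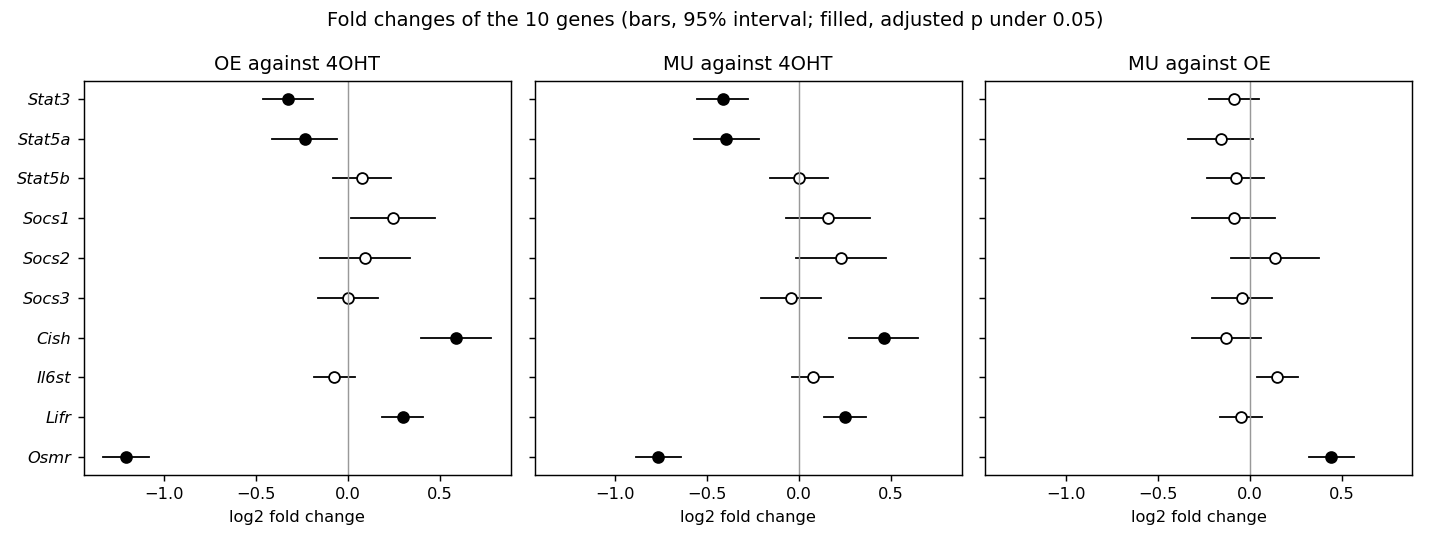
Log2 fold change of the 10 genes in each comparison with its 95% interval (edgeR, 3 libraries a group), filled where the adjusted p was under 0.05. Osmr lies at -1.21, -0.77 and 0.44, and the other 9 genes lie between -0.41 and 0.59.

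To compare levels between genes, CPM were divided by the kilobases of all annotated exons of a gene, which understates genes with long exons that are seldom used. On this scale Socs3, Stat3 and Il6st led in each group, at 50.7 ± 6.73, 49.7 ± 5.45 and 25.9 ± 1.68 CPM per kilobase (SD, n = 3) in 4OHT. Socs3 and Stat3 overlapped there, and in MU (49.2 ± 0.741 and 37.3 ± 0.382) and OE (50.7 ± 1.54 and 39.6 ± 0.856) Socs3 was above Stat3 without overlap. Osmr held rank 4 in 4OHT (11.6 ± 0.762), rank 5 in MU (6.80 ± 0.0968) and rank 7 in OE (5.00 ± 0.254), below Stat5b, Socs1 and Lifr. Stat5b stood at 8.27 ± 0.999, 8.28 ± 0.165 and 8.74 ± 0.208 in 4OHT, MU and OE. In 4OHT the neighbours Stat5a (5.30 ± 0.625), Socs1 (5.15 ± 0.829) and Lifr (4.45 ± 0.226) overlapped in turn, while in MU and OE no neighbours in the order overlapped. Cish (1.74 ± 0.198 in 4OHT and 2.62 ± 0.0194 in OE) and Socs2 (0.665 ± 0.0272 and 0.708 ± 0.0601) were last in each group.

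**Figure D4:**
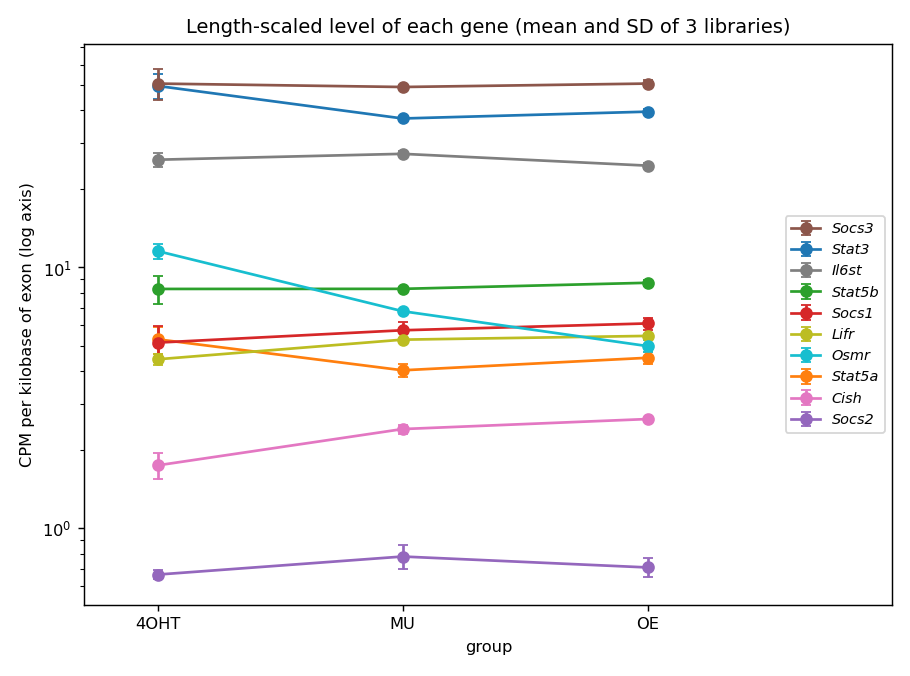
Level of each gene as CPM per kilobase of exon (log axis) in the 3 groups, as the mean and SD of 3 libraries. Osmr crosses Stat5b, Socs1 and Lifr between 4OHT and OE, and the leading genes Socs3, Stat3 and Il6st keep their places.

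The wider pathway was read from a list of 76 other JAK-STAT genes in 9 classes, of which 74 passed the filter (Il27 and Il5ra did not). In OE against 4OHT 59 of the 74 passed the test, 22 higher and 37 lower (79.7%, against 57.8% of all genes tested), with a median log2 fold change of -0.39 against 0.018 over all genes. In MU against 4OHT 60 passed, 23 higher and 37 lower (81.1%, against 56.0%), with a median of -0.35 against 0.043. In MU against OE 9 passed, 6 higher and 3 lower (12.2%, against 3.17%), with a median of 0.006 against 0.008. The list was chosen with earlier results known, and nothing particular to it is read from these shares. Counts per class are given next, with members chosen by their level and by the size of their change. Each count stands beside the same shares of all genes called: 57.8% in OE against 4OHT, 56.0% in MU against 4OHT and 3.17% between the constructs.

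Among the 8 ligands of gp130 receptors tested, 6 fell in OE and 5 in MU, none rose, and none passed between the constructs. Lif, which encodes the cytokine that SSC medium usually supplies, was at 63.8, 65.7 and 70.2 CPM in 4OHT, at 7.27, 6.37 and 6.33 CPM in MU and at 5.91, 5.13 and 4.19 CPM in OE. All 4OHT libraries were far above the rest, with a log2 fold change of -3.73 in OE (adjusted p = 6.56e-12) and -3.32 in MU (adjusted p = 1.86e-11). Lif fell further than the fibroblast markers did: per 1000 of their counts it was at 5.86 to 6.45 in 4OHT, at 1.15 to 1.34 in MU and at 0.962 to 1.38 in OE. Il11, encoding another ligand of the family, fell from 2.43 to 2.71 CPM to 0.708 to 0.816 CPM in MU and 0.370 to 0.566 CPM in OE (-1.74 and -2.36). Osm, which encodes the ligand of OSMR, stayed at or below 0.207 CPM in each library. It had 41, 62 and 20 counts in the MU libraries, above the level of 12 counts. In the shallower 4OHT libraries it had 7, 10 and 9 counts, and in OE 13, 0 and 9.

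Of 5 other receptors of the gp130 family, 1 rose and 2 fell in each construct group. Il11ra1, the receptor chain for interleukin-11, fell to 23.4 to 25.0 CPM in OE and 25.4 to 28.9 CPM in MU from 44.2 to 52.7 CPM in 4OHT. Per 1000 fibroblast marker counts it did not fall, at 4.03 to 4.96 in 4OHT, 4.67 to 5.27 in MU and 5.45 to 5.82 in OE. Il31ra, a chain that pairs with the OSMR protein to bind interleukin-31, rose 6.42-fold in OE and 6.34-fold in MU, from 0.299 to 0.491 CPM up to 2.15 to 2.69 CPM over both construct groups. Thus RNA for one partner of OSMR rose from a low level while Osmr fell.

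Of 12 STAT5-linked receptor genes tested, 5 rose and 2 fell in OE, 4 rose and 3 fell in MU, and between the constructs 1 was higher and 2 were lower in MU. Ghr, the growth hormone receptor, was at 45.7 to 48.8 CPM in 4OHT, 25.0 to 27.0 CPM in MU and 20.3 to 21.9 CPM in OE, with no overlap (-0.87 and -1.17 against 4OHT, 0.29 between MU and OE, adjusted p = 0.0137 for the last). That last call was lost without MU replicate 1, MU replicate 3, OE replicate 1 or OE replicate 2 (adjusted p = 0.0972, 0.0603, 0.0575 and 0.0800). Per 1000 fibroblast marker counts Ghr stood at 3.97 to 4.94, 4.52 to 4.96 and 4.74 to 5.02 in the 3 groups, which overlap. Csf2rb, the signalling chain shared by the receptors for interleukin-3, interleukin-5 and GM-CSF, ran the other way, at 2.44 to 3.41 CPM, 11.3 to 12.9 CPM and 21.6 to 23.2 CPM. It rose 7.58-fold in OE and 4.15-fold in MU and was lower in MU than in OE (-0.87, adjusted p = 2.67e-04). Csf2rb2, its neighbour and near copy, rose 3.79-fold in OE and 1.61-fold in MU and was also lower in MU than in OE (-1.24, adjusted p = 0.00114), though reads of such a pair may be shared between them. Both are expressed in leukocytes, and the summed macrophage and leukocyte markers stood in the same order of groups. Per 1000 counts of those markers Csf2rb was at 12.9 to 19.1 in 4OHT, 9.63 to 11.3 in MU and 9.16 to 10.2 in OE.

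Of 5 further receptors that signal through STAT3, 2 rose and 2 fell in each construct group. Il10rb, a chain of the interleukin-10 receptor, fell from 17.8 to 20.01 CPM to 13.9 to 14.3 CPM in MU and 12.7 to 13.4 CPM in OE. Egfr, the receptor for EGF, fell from 36.6 to 39.9 CPM to 18.1 to 18.4 CPM and 13.0 to 16.5 CPM. Lepr, the leptin receptor, rose from 0.457 to 0.712 CPM to 1.17 to 1.34 CPM and 1.59 to 2.77 CPM.

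Janus kinase genes passed in 3 of 4 cases in OE (1 higher, 2 lower) and in 4 of 4 in MU (2 higher, 2 lower). Jak1, the main kinase of gp130 receptors, fell from 469 to 512 CPM in 4OHT to 345 to 349 CPM in MU and 354 to 357 CPM in OE (-0.48 and -0.45). Tyk2 rose from 59.0 to 72.4 CPM to 96.4 to 102 CPM and 109 to 110 CPM (0.59 and 0.74). Jak1 thus moved in the direction of Stat3.

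Of the 4 other STATs, 2 fell in OE, and in MU 2 fell and 1 rose. Stat6, which acts for interleukin-4, fell from 59.7 to 72.1 CPM to 29.1 to 31.6 CPM in MU and 32.4 to 35.7 CPM in OE (-1.07 and -0.92). All 4 remaining SOCS genes passed in both comparisons, 3 lower and 1 higher, where Socs1, Socs2 and Socs3 had not. Of all genes tested, 57.8% were called in OE and 56.0% in MU, and nothing is read from a contrast of so few genes. Socs5 fell from 130 to 138 CPM to 63.8 to 64.3 CPM in MU and 57.0 to 63.5 CPM in OE, and Socs6 from 53.0 to 58.7 CPM to 29.98 to 31.8 CPM and 31.0 to 36.0 CPM. Socs7 rose from 100.2 to 111 CPM to 156 to 171 CPM and 169 to 187 CPM.

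In a class of 10 genes that held PIAS proteins, phosphatases, Sh2b3 and Cbl, 5 rose and 4 fell in each construct group. Several of these are known to restrain STATs or kinases. Pias3, known as an inhibitor of STAT3, fell to 34.2% of its 4OHT level in OE and to 37.3% in MU (from 41.6 to 47.5 CPM to 14.6 to 15.7 CPM and 15.8 to 16.7 CPM). Pias2 rose 1.37-fold and 1.29-fold, from 118 to 133 CPM. Ptpn6, the phosphatase SHP-1 of blood cells, rose 4.78-fold in OE and 2.58-fold in MU and was lower in MU than in OE (-0.89, adjusted p = 1.56e-04), in the direction of the leukocyte markers. Per 1000 of those markers' counts, most of them of Lyz2, it stood at 26.1 to 37.7 in 4OHT, 12.5 to 14.2 in MU and 11.7 to 13.4 in OE.

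Genes known as STAT3 or STAT5 targets passed in 21 of 22 cases in each construct group, 7 higher and 14 lower, so that no single direction held for the list. That is 95.5% of the list, where 57.8% of all genes were called in OE and 56.0% in MU. Pim1, a kinase gene induced by both STATs, rose 2.82-fold in OE and 2.75-fold in MU, from 125 to 142 CPM in 4OHT to 368 to 372 CPM in MU and 370 to 390 CPM in OE. Per 1000 germ cell marker counts it also stood higher, at 66.2 to 74.5 in 4OHT, 128 to 132 in MU and 122 to 128 in OE. Ccnd1, the gene of cyclin D1, fell from 601 to 626 CPM to 92.5 to 96.1 CPM and 75.5 to 81.2 CPM (-2.71 and -2.97), and per 1000 fibroblast marker counts from 50.2 to 62.0 to 16.9 to 17.4 and 17.3 to 19.0. Myc fell from 31.4 to 37.9 CPM to 9.20 to 10.5 CPM and 7.77 to 8.71 CPM (-1.77 and -2.04). Cish, a known STAT5 target that is not on this list, also rose, and it rose less than Pim1. Socs3, a known STAT3 target that is not on it either, did not change detectably.

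Between the constructs, 5 of the 22 target genes passed, and all 5 were higher in MU than in OE (22.7% of the list, where 3.17% of all genes were called). Ccnd1 differed by 0.26 (adjusted p = 0.00465), Timp1, a protease inhibitor gene of fibroblasts and other cells, by 0.46 (adjusted p = 4.01e-04) and Junb by 0.37 (adjusted p = 0.00854). Hif1a differed by 0.21 (adjusted p = 0.0204) and lost its call without any 1 of the 6 construct libraries (adjusted p = 0.0523 to 0.151). Junb lost its call without MU replicate 2 (adjusted p = 0.0543) or OE replicate 1 (adjusted p = 0.0563). Lcn2, which encodes the antibacterial protein lipocalin-2, was at 56.8 to 67.0 CPM in 4OHT, 116 to 123 CPM in MU and 77.2 to 82.9 CPM in OE, a difference of 0.56 between the constructs (adjusted p = 1.09e-04). It was the only one of the 5 that was above 4OHT in both constructs. The other 4 were in the order 4OHT, MU, OE from high to low, as were the summed fibroblast markers and Osmr. Per 1000 counts of those markers, Junb was at 18.9 to 23.1 in 4OHT, 15.3 to 15.7 in MU and 15.1 to 15.4 in OE. Timp1 was at 10.2 to 14.2, 8.92 to 9.73 and 8.46 to 8.66 in the same order. Both were thus also lower in each construct group than in 4OHT when measured against these markers. Between MU and OE these ratios overlapped for Junb but not for Timp1.

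**Figure D5:**
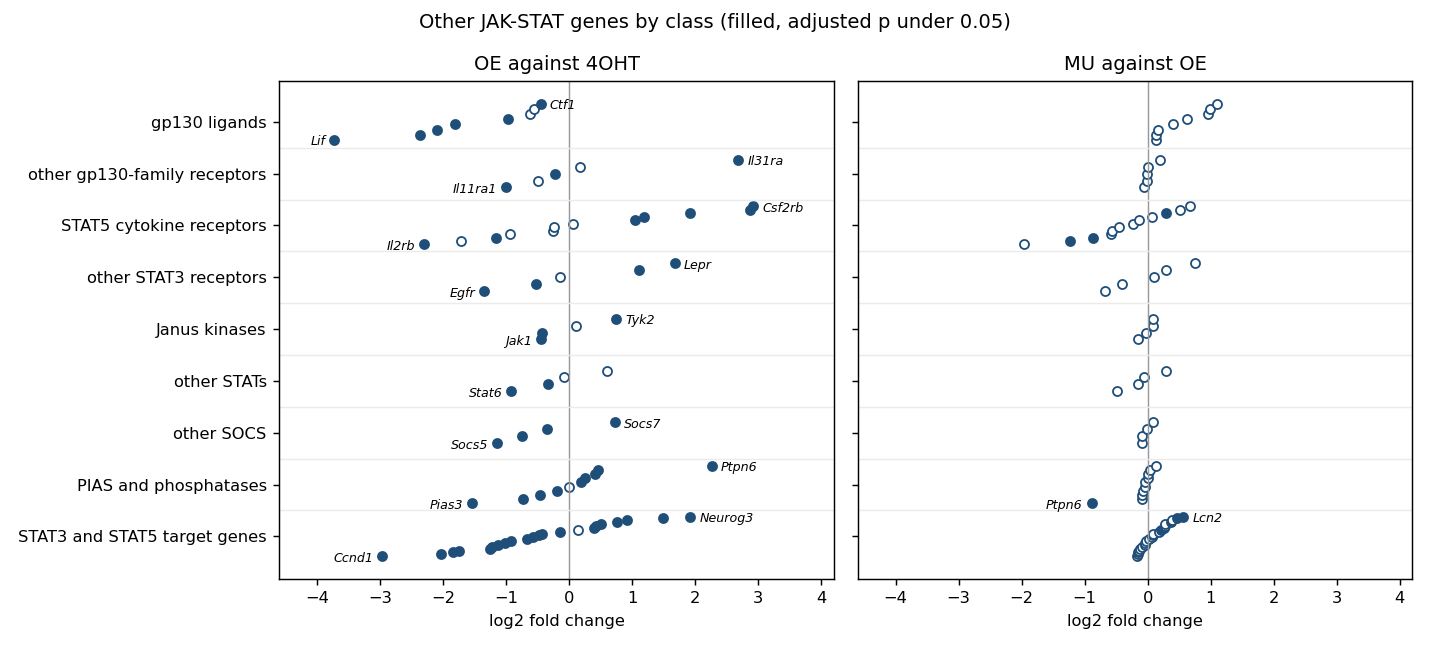
Log2 fold change of the 74 other JAK-STAT genes tested, by class, for OE against 4OHT (left) and MU against OE (right), with filled points for adjusted p under 0.05 and the outermost called genes named. Ligands lie at or below -0.45 on the left, and on the right 9 points are filled.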

How the data were processed

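For 9 mRNA libraries the authors deposited counts per gene as whole numbers. By the study's methods and the submitters' processing notes, reads were trimmed with BBmap and Trimmomatic 0.39, aligned to GRCm38 with HISAT2 2.2.1 and quantified with StringTie 2.2.1. How StringTie output became whole numbers, the strand setting and the treatment of multi-mapped reads are not given in the sources used here, and these can move reads between paralogues and overlapping genes. Columns were tied to groups by their names, which are the sample titles.

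In R 4.3.3, edgeR 4.0.16 was run with filterByExpr (minimum count 10, minimum total 15, 22452 genes left), TMM factors and a quasi-likelihood fit of group over all 9 libraries. Benjamini-Hochberg adjusted p-values under 0.05 were called. Alternatives were 7 other settings (among them DESeq2 1.42.0) and each library left out. None of them let the groups compared differ in spread. The floor taken for detection was 12 counts, 0.0328 to 0.152 CPM per library, and it covers counting error only. Exon lengths and positions came from GENCODE vM21 (53706 of the 53801 identifiers matched) and promoters from RefSeq. Steps were tested on simulated data.

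The 10 genes, the 76 pathway genes in their classes and the cell markers were chosen with earlier results of these data known. Named in the text were, per class, the gene with the highest length-scaled mean level and the 2 with the largest change in OE against 4OHT among genes called there at 1 CPM or more on average, and every pathway gene called in MU against OE, except for some that are not reported here. Likeness was the correlation of log2 CPM (prior count 1). Osm, Gfra1, Zbtb16, Dcn and the genes of the closing section were named after their values were seen.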

Additional observations from a re-analysis of the deposited data

How the results depend on the processing

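Of the 30 results for the 10 genes (3 comparisons each), 19 kept their direction and their side of the threshold under all 16 alternatives, among them every result of Osmr, Stat3, Cish and Lifr, and of the 65 results for named pathway genes 62 did (the exceptions, Ghr, Hif1a and Junb in MU against OE, are given above). Between MU and OE, fitting only these groups called 1565 genes, 2 of the 10 genes and 17 pathway genes in place of 712, 1 and 9. DESeq2 called 1114 genes and 17 pathway genes, and counts divided by 4 gave 15 pathway genes. Signs changed for Socs3, Stat5b and Il6st in results that passed neither before nor after. Socs3 in OE against 4OHT was at -0.019 with DESeq2 size factors, -0.037 with counts divided by 4, -0.018 with only the groups compared and -0.0077 in DESeq2, and Il6st was at 0.0040 with upper-quartile factors. In MU against 4OHT, Stat5b was at -0.029, -0.031 and -0.012 with DESeq2 size factors, counts divided by 4 and DESeq2, and Socs3 at 0.035 with upper-quartile factors and 0.018 without the filter. The cause was not tested. With single libraries left out, Socs3 ranged from -0.117 to 0.0899 in OE and from -0.158 to 0.0499 in MU, and Stat5b from -0.0539 to 0.0994 in MU. The genes called then ranged from 12140 to 13084 in OE against 4OHT (4 to 6 of the 10 genes, 56 to 60 pathway genes), from 11293 to 12646 in MU against 4OHT (5 to 6, 57 to 60) and from 400 to 1099 in MU against OE (1 to 2, 7 to 15). Upper-quartile factors raised the median of all genes to 0.097 in OE and 0.122 in MU.

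Equal replicate numbers do not pair the libraries: the 9 correlations of same-numbered deviations were -0.0195 to 0.0443, and 0 were over 0.1. With the number as a replicate block, 12807, 12443 and 674 genes, 5, 5 and 1 of the 10 genes and 57, 60 and 9 pathway genes passed in OE against 4OHT, MU against 4OHT and MU against OE.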

Other observations

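The chains of the interleukin-2 receptor, which signals through STAT5 in lymphocytes, had low levels and moved in different directions. Il2ra was at 0.0446 to 0.108 CPM in 4OHT, 0.101 to 0.143 CPM in MU and 0.249 to 0.665 CPM in OE, and it was called higher in OE (adjusted p = 0.00158 from edgeR), with at most 9 counts in any 4OHT library, below the floor of 12 counts. Il2rb fell from 0.791 to 1.16 CPM to 0.0715 to 0.201 CPM in MU and 0.134 to 0.246 CPM in OE. Il2rg, the chain shared with other interleukin receptors, rose from 0.491 to 0.633 CPM to 1.44 to 1.96 CPM and 1.09 to 1.27 CPM. Jak3, the kinase bound to that chain, fell from 6.11 to 7.46 CPM to 5.22 to 5.60 CPM and 4.89 to 5.34 CPM.

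Among target genes linked to germ cells or pluripotency, Neurog3, a gene of undifferentiated progenitor spermatogonia, rose from 2.52 to 3.59 CPM in 4OHT to 10.6 to 11.1 CPM in MU and 11.8 to 11.9 CPM in OE, and per 1000 germ cell marker counts from 1.38 to 1.88 to 3.76 to 3.97 and 3.87 to 3.92. Tfcp2l1, a pluripotency factor gene downstream of LIF, rose from 16.6 to 21.3 CPM to 30.7 to 32.6 CPM and 32.6 to 37.7 CPM. Klf4, another such gene, fell from 133 to 174 CPM to 90.8 to 92.7 CPM and 73.6 to 78.2 CPM.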
